A study of Mus musculus with 2 samples.

Results

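The genes of the mitochondrial respiratory chain and of ATP synthase were followed across the cell types of the young mouse dentate gyrus. The members were chosen by symbol. They are the genes whose names begin with Ndufa, Ndufb, Ndufc, Ndufs, Ndufv, Uqcr, Cox4i, Cox5, Cox6, Cox7, Cox8, Atp5, mt-Nd, mt-Co, mt-Cytb or mt-Atp, together with Sdha to Sdhd and without pseudogenes such as Ndufb1-ps. This rule took 106 of the 32285 genes in the files. Of these, 93 are encoded in the nucleus and 13 in the mitochondrial genome. By symbol, the nuclear members comprised 38 subunits and 8 assembly factors of complex I, 4 subunits of complex II, 8 of complex III, 18 of complex IV and 17 of complex V. Ndufa4 and Ndufa4l2 are counted with complex I by their symbols, although Ndufa4 is now known as a subunit of complex IV.

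The series profiled dentate gyrus cells of mice aged 30 postnatal days with the 10x Chromium 3' single-cell method. The control sample was Nestin-Cre Tg, Phf2+/+, and the other sample was a conditional knockout (cKO), Nestin-Cre Tg, Phf2flox/flox. Each pooled 4 mice into 1 library, and all mice carried the Nestin-Cre transgene (B6.Cg-Tg(Nes-cre)1Kln/J), in which a Nestin promoter drives Cre in neural progenitors and so in the cells that descend from them. Phf2 encodes a histone demethylase. The deposited matrix marks the libraries only by barcode suffixes 1 and 2, and no source used here ties a suffix to a genotype. The libraries are therefore called library 1 and library 2, no genotype was compared, and pairs of values below are always given for library 1 and then library 2.

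Oxidative phosphorylation passes electrons from NADH (complex I) or succinate (complex II) through complex III to oxygen at complex IV, and complex V uses the resulting proton gradient to make ATP. The mitochondrial genome codes for the membrane-embedded core of complexes I, III, IV and V, whereas all other subunits, and all of complex II, are nuclear genes whose products are imported. Several nuclear subunits have a second copy with restricted use, such as the hypoxia-linked Cox4i2 and Ndufa4l2 or the muscle-type Cox7a1 and Cox8b. In the adult brain, neurons rely heavily on oxidative phosphorylation, and neural stem cells are commonly described as more glycolytic.

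Library 1 held 102897659 unique molecular identifiers (UMIs, 1 per captured messenger RNA molecule) and library 2 held 107266420. After filtering and doublet removal, 8029 and 8129 cells formed 32 clusters, of which 277 and 291 cells stayed unnamed. The others fell into 18 classes named from marker genes, so that each name below means cells that resemble that type by markers. RGL stands for radial glia-like cells, the stem cells of the region, and nIPC for neuronal intermediate progenitor cells. Every marker listed for a class reached at least 10 CPM (counts scaled to a fixed total of 1000000 UMIs) in that class in both libraries, including all 11 granule neuron markers and all 13 RGL markers. Prox1, which defines the granule lineage, stood at 529.6 and 506 CPM in granule neurons and 1085 and 1076 CPM in neuroblasts. No cluster took the name of oligodendrocyte precursors, although the premyelinating cluster scored close to them. Members, mitochondrial genes and the pathway lists used below were left out of the clustering. Of the barcode sequences of kept cells, 23 occurred in both libraries. Each library and class was summed to 1 count profile, which held between 255962 and 24931657 UMIs.

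Both libraries contained free RNA, read from barcodes with fewer than 100 UMIs. Nuclear members took 2.04% and 2.06% of it, and mitochondrially encoded members 22.6% and 25.3%. By the estimate used here it made up at most 0.0458% to 2.12% of the UMIs of a class. Mitochondrial shares were higher in library 2 in 18 of 18 classes, with a median ratio of library 2 to library 1 of 1.27. Nuclear shares were higher in library 2 in 12 of 18 classes, with a median ratio of 1.02.

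Promoters of the nuclear members were examined for GC content and 3 motifs. RefSeq promoters (GRCm38.p6, 250 bases before to 50 after a gene's start) were matched for 75 of the 93 nuclear members and gave 80 promoters. Their median GC content was 58.0%, against 52.7% over all 32851 promoters in the table. The motif of NRF1, a regulator of nuclear respiratory genes, was searched as GCGCATGCG or its reverse complement CGCATGCGC, which overlap each other. It stood in 10 of the 80 promoters (12.5%) and in 1.75% of all promoters. The ETS motif recognised by GABPA, CCGGAAGT or its reverse complement ACTTCCGG, stood in 5 (6.25%) against 3.89% of all, and the YY1 motif AAGATGGCG or its reverse complement CGCCATCTT in 8 (10.0%) against 1.40%. Of the members' promoters only that of Uqcr11 held more than 1 of the 3 motifs, NRF1 and ETS. No test was made of these shares, and a match of letters is not a bound site. The promoters below belong to subunit copies that parted between classes in the results. Cox8a was present in every class and Cox8b was abundant in choroid plexus alone among the classes, while Atp5g1 and Atp5g2 are a pair of genes for the same c subunit of ATP synthase. Capitals mark a motif, joined where matches on both strands overlap.
Cox8a, chr19:7217567-7217866, minus strand: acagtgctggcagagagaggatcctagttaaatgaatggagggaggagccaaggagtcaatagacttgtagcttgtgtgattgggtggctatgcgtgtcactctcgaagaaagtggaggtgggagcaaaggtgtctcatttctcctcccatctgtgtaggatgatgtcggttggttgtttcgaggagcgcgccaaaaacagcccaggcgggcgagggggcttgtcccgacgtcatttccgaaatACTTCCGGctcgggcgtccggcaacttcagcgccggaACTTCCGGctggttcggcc
Cox8b, chr7:140900397-140900696, minus strand: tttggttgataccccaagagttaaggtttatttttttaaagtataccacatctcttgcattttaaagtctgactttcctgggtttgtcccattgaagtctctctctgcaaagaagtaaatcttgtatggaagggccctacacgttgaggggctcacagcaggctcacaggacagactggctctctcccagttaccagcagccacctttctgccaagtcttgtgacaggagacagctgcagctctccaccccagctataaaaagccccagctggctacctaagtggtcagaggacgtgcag
Atp5g1, chr11:96075582-96075881, minus strand: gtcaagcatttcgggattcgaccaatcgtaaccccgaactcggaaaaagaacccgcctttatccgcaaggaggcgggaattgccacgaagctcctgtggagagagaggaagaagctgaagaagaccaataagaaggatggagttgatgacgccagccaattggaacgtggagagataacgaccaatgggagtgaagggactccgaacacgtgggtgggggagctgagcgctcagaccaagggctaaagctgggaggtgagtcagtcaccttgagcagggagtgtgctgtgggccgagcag
Atp5g2, chr15:102670998-102671297, minus strand: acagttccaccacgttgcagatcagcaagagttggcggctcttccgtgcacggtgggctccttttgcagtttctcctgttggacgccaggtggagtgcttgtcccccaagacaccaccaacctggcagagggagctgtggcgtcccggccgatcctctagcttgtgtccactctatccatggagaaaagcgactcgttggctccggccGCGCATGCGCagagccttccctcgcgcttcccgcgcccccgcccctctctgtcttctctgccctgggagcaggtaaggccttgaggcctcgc
The Cox8a promoter holds the ETS letters on the minus strand of the printed sequence at more than 1 place, and the Atp5g2 promoter holds the NRF1 letters. Neither set of letters, nor that of YY1, is in the printed windows of Cox8b and Atp5g1. In the pairs Cox6b1 with Cox6b2 and Cox7a2 with Cox7a1, not printed, neither copy's promoter held NRF1, ETS or YY1 letters. Whether a motif goes with the use of a copy was not tested.

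The share of a class's UMIs that came from nuclear members varied more between classes than the mitochondrial share. Choroid plexus cells, the epithelium that makes cerebrospinal fluid, were highest at 10.8% and 5.37%, followed by granule neurons at 4.29% and 4.53%. Smooth muscle cells reached 3.14% and 3.52%, astrocytes 3.31% and 3.12% and Cajal-Retzius cells 3.21% and 3.31%. RGL stood at 2.49% and 2.50%, nIPC at 2.70% and 2.67% and neuroblasts at 2.42% and 2.48%. Shallow clusters stood higher here too, at 3.91% and 3.91% in RGL and 4.08% and 3.96% in neuroblasts. Microglia at 0.978% and 1.00% and erythroid cells at 0.694% and 0.928% were lowest in both libraries. Choroid plexus was the class in which the libraries differed most.

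Mitochondrially encoded members were highest in astrocytes, at 9.36% and 10.8% of UMIs. The main astrocyte cluster held 8.95% and 10.5%, and the shallow one 11.7% and 13.9%. Smooth muscle cells followed at 8.19% and 8.58%, RGL at 6.84% and 8.0%, and oligodendrocytes reached 6.33% and 7.02%. Granule neurons, second in nuclear share, reached only 4.62% and 4.95%. Erythroid cells at 2.39% and 3.44% and microglia at 3.32% and 4.51% were again at the low end. Cells with over 20% mitochondrial UMIs had been removed, which caps these shares. Free RNA was richer in mitochondrial messages than any class.

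The balance of the genomes therefore differed between classes. Granule neurons held 1.08 and 1.09 mitochondrial UMIs per nuclear UMI, Cajal-Retzius cells 1.06 and 1.40 and choroid plexus 0.422 and 1.33. Neuroblasts held 1.87 and 2.33 and RGL 2.75 and 3.20. The ratio was highest in oligodendrocytes (3.58 and 3.83), erythroid cells (3.44 and 3.71) and microglia (3.40 and 4.49). Across the 18 classes the nuclear and mitochondrial shares correlated weakly, with a Pearson r of 0.110 and 0.342 and a Spearman rho of 0.383 and 0.381. These are descriptions over classes that share a library and its depth.

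**Figure D1:**
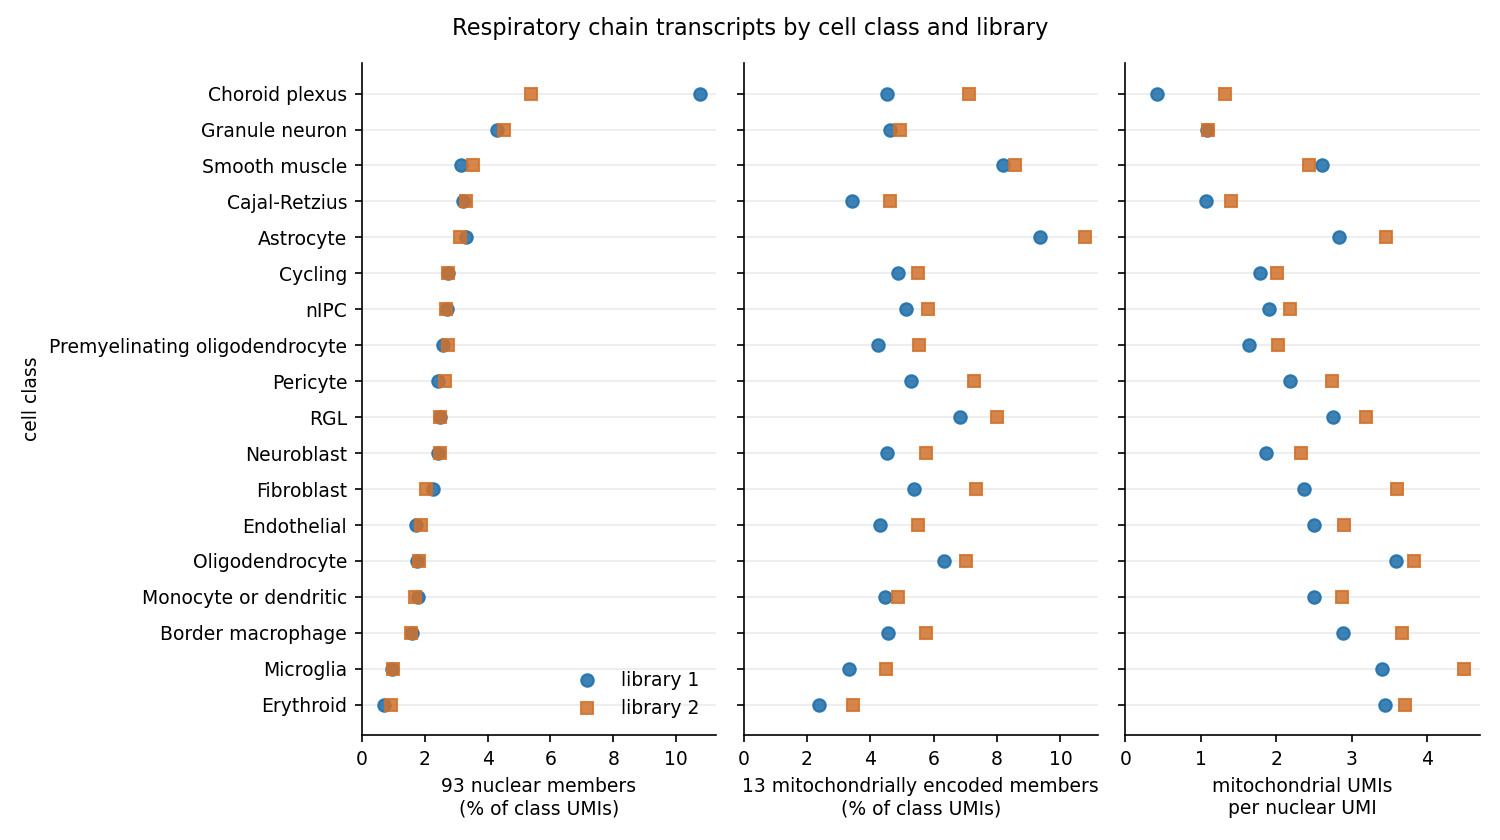
Share of UMIs from the 93 nuclear members (left, percent), share from the 13 mitochondrially encoded members (middle, percent) and UMIs of the second per UMI of the first (right) for 18 cell classes, with circles for library 1 and squares for library 2. Choroid plexus and granule neurons lead the nuclear panel, astrocytes lead the mitochondrial panel at 9.36% and 10.8%, and library 2 lies to the right of library 1 in the mitochondrial panel in 18 of 18 classes.

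The 13 mitochondrial messages were present in unequal amounts. mt-Atp6, a proton channel subunit of ATP synthase, gave a median of 20.3% of their UMIs over the 36 profiles (range 18% to 22.1%), and the cytochrome oxidase core subunit mt-Co3 19.7%. mt-Cytb, the only complex III subunit of this genome, gave 11.0%. mt-Nd6, the one of the 13 annotated on the minus strand (chrM:13552-14070, GRCm38), gave 0.136%. mt-Nd5 stood out in choroid plexus, where it reached 2.13% and 2.32% against at most 1.29% in all other profiles. These are shares of counted tags and were not scaled to gene length. mt-Atp8 (chrM:7766-7969) shares 43 bases with mt-Atp6 (chrM:7927-8607), and mt-Nd4l (chrM:9877-10173) shares 7 with mt-Nd4 (chrM:10167-11544). Each pair lies on a common message, so the counts of its smaller partner are uncertain.

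**Figure D2:**
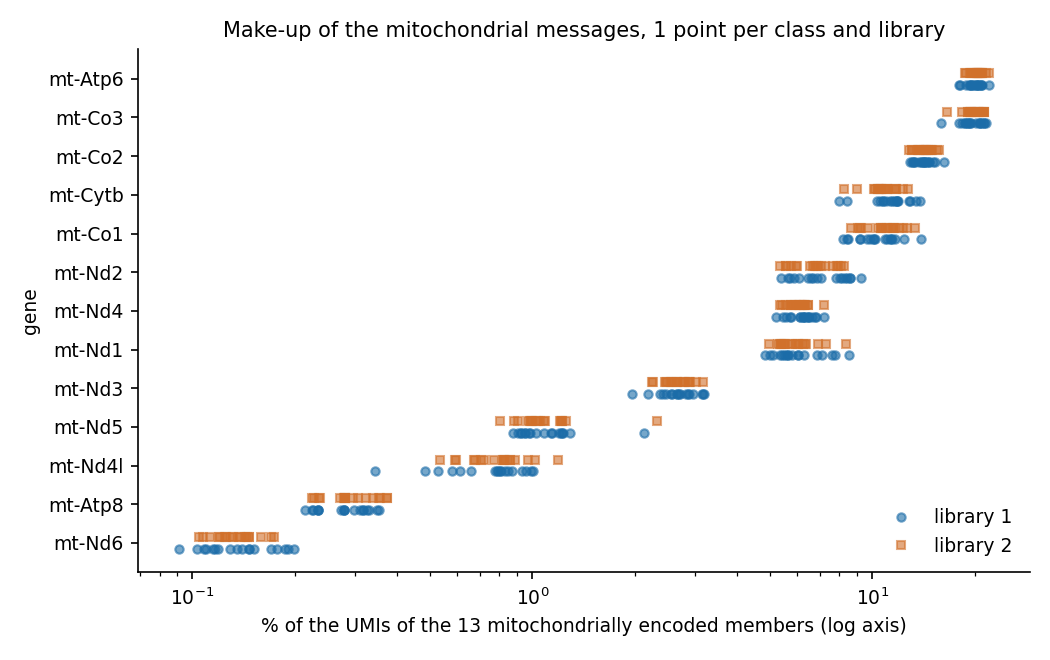
Share of the UMIs of the 13 mitochondrially encoded members taken by each gene (horizontal log axis, percent), with 1 point per class and library. mt-Atp6 and mt-Co3 lead with medians of 20.3% and 19.7%, mt-Nd6 is lowest at 0.136%, and the 2 choroid plexus points of mt-Nd5 lie apart from the rest.

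By the mean CPM of both libraries, most nuclear members were highest in the same class. On that mean, 70 of the 92 nuclear members with any UMI were highest in choroid plexus and 11 in granule neurons. The mean weighs the libraries equally, although choroid plexus had 29 cells in library 1 and 339 in library 2. Uqcrc2 stood there at 324 and 162 CPM, whereas Sdha stood at 166 and 165 CPM. The highest class was not counted for each library alone. The highest class exceeded the median class 3.04-fold for the median member. The most even member was Sdha, the flavoprotein of complex II, at 1.52-fold. A highest class over 5-fold above the median class was found for 15 members, among them the restricted copies Ndufa4l2, Cox4i2, Cox8b, Cox6b2, Cox7a1, Cox7b2 and Cox6a2. For Cox6a2 the highest class, monocytes or dendritic cells, rests on 4 UMIs of library 2 and 0 of library 1. Ndufc2, also among the 15, is a membrane-arm subunit of complex I (chr7:97400003-97407802, GRCm38, plus strand). It stood at 1651 and 1440.1 CPM in RGL and 1538 and 1450.1 CPM in astrocytes, and at no more than 773 CPM elsewhere. Cox7a2l, which helps complexes III and IV form supercomplexes, had its highest mean in Cajal-Retzius cells, at 527 and 521 CPM, and its lowest, 122 and 114 CPM, in astrocytes. Cox8c had 0 UMIs among 148174685, which allows up to 0.0202 CPM, and Cox6a2 had 151.

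Pericytes, the mural cells of capillaries, held the highest levels of Ndufa4l2 and Cox4i2 and the lowest of Ndufa4. Ndufa4l2 (chr10:127514967-127517154, GRCm38, plus strand) stood at 1408 and 1368 CPM in pericytes, 332 and 334 CPM in smooth muscle cells and 170.4 and 66.0 CPM in fibroblasts. In the 15 other classes it was at or below 12.3 CPM. Its partner Ndufa4 (chr6:11900292-11907497, minus strand) was lowest in pericytes, at 43.9 and 65.0 CPM, and next lowest in microglia, at 173 and 176 CPM. Smooth muscle cells held both, with 568 and 657 CPM of Ndufa4. After thinning each cell to 1000 UMIs, 69.8% and 75.5% of pericytes had an Ndufa4l2 UMI, against 0% and 0% of oligodendrocytes, where 0 of 291 and of 355 cells allows a share of cells with a UMI after thinning of up to 1.03% and 0.845%. Without thinning these shares were 95.7% and 100% in pericytes, at a median of 4402 and 4158 UMIs, and 1.03% and 0.282% in oligodendrocytes, at 23807 and 21775 UMIs.

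Cox4i2, the hypoxia-linked copy of subunit 4 of cytochrome oxidase (chr2:152754173-152765037, plus strand), was found in mural cells and in RGL. It stood at 589 and 562 CPM in pericytes and 116 and 109.6 CPM in smooth muscle cells. RGL held 77.8 and 179.9 CPM, with exact Poisson 95% intervals of 69.1 to 87.3 and 168 to 192. Astrocytes held 4.92 and 9.77 CPM, nIPC 1.64 and 3.74 CPM and neuroblasts 0.561 and 0.206 CPM, and free RNA 12.5 and 19.3 CPM. Cox4i1 varied far less, from 287 and 362 CPM in erythroid cells to 3259 and 2249 CPM in choroid plexus, with 979.9 and 997 CPM in RGL. After thinning, 6.63% and 16.2% of RGL had a Cox4i2 UMI, against 0.543% and 0.432% of astrocytes and 45.7% and 48.0% of pericytes. The intervals cover counting error only.

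In choroid plexus Cox8b, Cox6b2 and Cox7a1 were highest. Cox8b stood there at 674 and 121 CPM and at no more than 7.29 CPM in any other class. Cox6b2, known as a testis form, stood at 328 and 185 CPM, with fibroblasts next at 44.2 and 45.0 CPM. Cox7a1 stood at 124 and 50.8 CPM, with Cajal-Retzius cells next at 25 and 25.1 CPM. The common copies were also highest there, with Cox8a at 5895 and 3002 CPM and Atp5g1 at 4170.2 and 1857 CPM, against 922 and 1010.2 CPM of Atp5g1 in granule neurons and 310.0 and 269 CPM in astrocytes. Atp5g2, which codes for the same mature protein, was instead at its highest mean in cycling cells, at 821 and 853 CPM, with 676 and 650.4 CPM in nIPC and 381 and 374 CPM in RGL. Cox7b2 had its highest mean in astrocytes, at 9.06 and 8.43 CPM, and had 0 UMIs in both libraries in 7 classes.

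**Figure D3:**
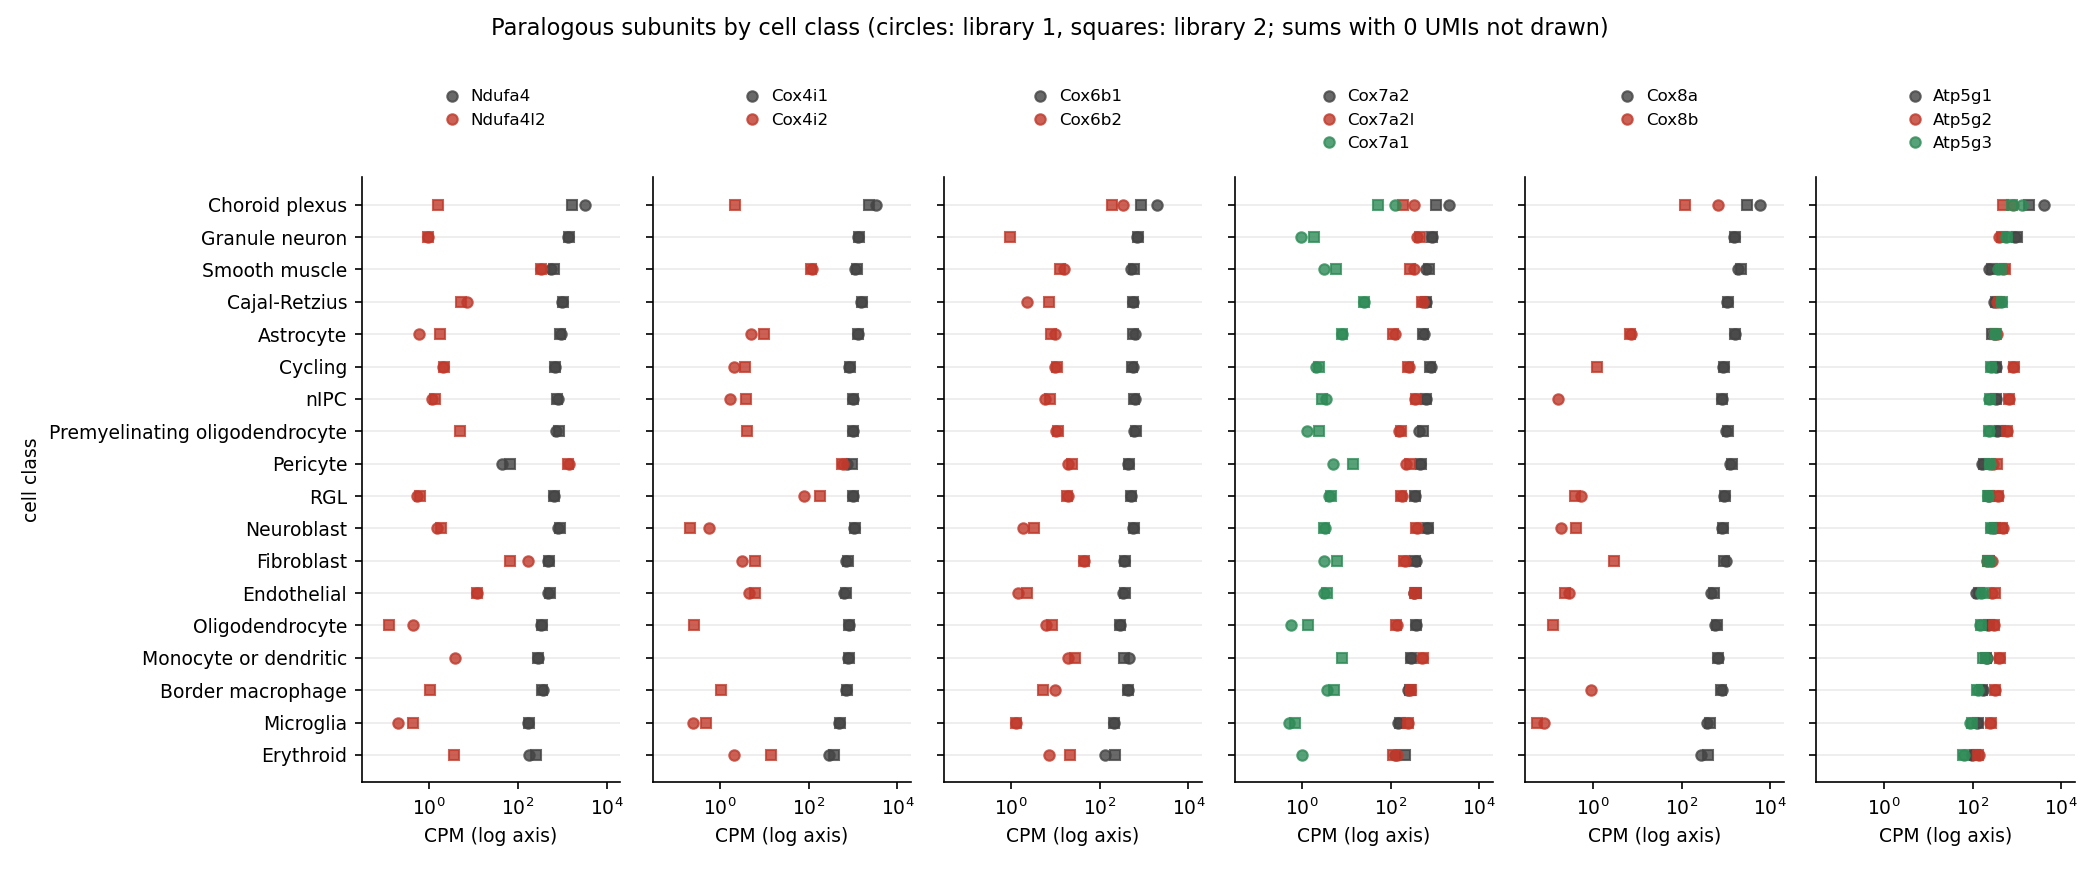
Level of subunit copies by cell class (horizontal log axis, CPM), with circles for library 1, squares for library 2 and a color per gene; profiles with 0 UMIs are not drawn. The copies Ndufa4l2 and Cox4i2 peak in pericytes, where Ndufa4 falls to 43.9 and 65.0 CPM, and Cox8b, Cox6b2 and Cox7a1 peak in choroid plexus.

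Differences between classes were tested in 8 comparisons with edgeR over 15529 genes, with a threshold of 0.05 on adjusted p. Of the nuclear members, 91 passed the filter on low counts, and Cox6a2 and Cox8c did not. Restricted copies passed through the classes in which they are high, so in the comparisons of those classes their values are given as a description. The split of all called genes depended on the scaling: with total-count scaling the share that were higher went from 43.7% to 74.8% in RGL against astrocytes, from 50.2% to 37.1% in neuroblasts against nIPC, from 48.2% to 18% in oligodendrocytes, from 47.5% to 58.7% in pericytes and from 50.7% to 34.7% in choroid plexus. DESeq2 moved it from 35.2% to 58.0% in border macrophages, from 47.5% to 59.6% in pericytes and from 48.2% to 37.1% in oligodendrocytes. Each class has 1 sum per library, and the fit holds a library term. A p-value therefore reflects how class differences vary between these 2 libraries, not between mice. That spread was estimated over all classes together (17 residual degrees of freedom), because a pair of classes alone leaves too few. It also holds any genotype effect that differs between classes, since the libraries differ in genotype. A log2 difference is taken after a scaling (TMM) that sets the bulk of genes near 0, so it can differ from the ratio of the CPM values.

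RGL were compared with astrocytes, the glia they most resemble. Nearly the whole chain was lower in RGL. Of 91 nuclear members, 75 fell and 2 rose (median log2 difference -0.74), where 18.1% of all genes tested fell, 14.1% rose and their median was -0.026. All 13 mitochondrially encoded members fell as well (median -0.85). In complex I, 33 of 38 subunits fell, as did all 4 members of complex II, all 8 of complex III, 13 of 16 tested in complex IV and 15 of 17 in complex V. Of the 8 complex I assembly factors only 2 passed.

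Cox5a, a core-associated subunit of cytochrome oxidase, stood at 228 and 231 CPM in RGL and 532 and 459.6 CPM in astrocytes (log2 difference -1.48, SE 0.18, adjusted p = 9.03e-09). Uqcrc1, a core subunit of complex III, stood at 97.1 and 94.0 CPM against 163 and 154 CPM (log2 difference -1.10, SE 0.12, adjusted p = 2.71e-10), and Atp5b, the catalytic subunit of ATP synthase, at 372 and 336 CPM against 597 and 553 CPM (log2 difference -1.07, SE 0.14, adjusted p = 5.92e-08). In these genes both RGL values lay below both astrocyte values. Sdhb, the iron-sulfur subunit of complex II, fell by 0.86 and Ndufs1, which takes electrons through complex I, fell by 0.74 on the log2 scale. The 2 members that rose were Cox4i2, a restricted copy whose levels are given above as a description, and Cox6b2 (log2 difference 0.70, SE 0.23, adjusted p = 0.0175). The largest falls were those of Cox8b (0.535 and 0.403 CPM against 7.29 and 6.90 CPM), Cox5a, Cox7b2 (2.94 and 5.04 CPM against 9.06 and 8.43 CPM) and Cox7a1 (4.01 and 4.44 CPM against 8.07 and 8.05 CPM). Of these Cox8b, Cox7b2 and Cox7a1 are restricted copies, and the count of nuclear falls includes them. With total-count scaling, under which the all-gene median was 0.29, 38 nuclear members fell, and with a mitochondrial limit of 10% 7 mitochondrial members did. Early response and dissociation genes moved in this comparison too (11 of 20 higher and 1 lower), and their part in the result was not tested.

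In the step from RGL to nIPC the mitochondrial messages fell while nuclear members went both ways. Of the 13 mitochondrial members, 12 fell (median -0.67), the exception being mt-Co1 at 5787 and 6685 CPM against 5796 and 7253 CPM (log2 difference -0.16, SE 0.16, adjusted p = 0.444). mt-Nd2, a membrane-arm subunit of complex I, stood at 3022 and 3350.1 CPM in nIPC and 5861 and 6288 CPM in RGL (log2 difference -1.03, SE 0.14, adjusted p = 2.19e-08). Of the nuclear members 18 rose and 16 fell, with a median of 0.013; of all genes 27.9% rose and 25.3% fell, so neither nuclear count exceeded the background share. The nuclear balance changed with the settings, with 6 higher and 22 lower in DESeq2, 25 and 28 with the 2 classes fitted alone and 21 and 8 with total-count scaling. Complex V had 7 of 17 members higher and 1 lower, among them Atp5g2 (log2 difference 0.71, SE 0.14, adjusted p = 3.53e-05) and Atp5c1 (log2 difference 0.45, SE 0.15, adjusted p = 0.00949). Cox5a, Cox7a2 and Cox7a2l rose in nIPC, by 0.88, 0.72 and 0.95 on the log2 scale. The assembly factor Ndufaf6 rose most (log2 difference 1.07, SE 0.19, adjusted p = 8.26e-06). Sdha and Ndufs7 fell by 0.60 and 0.61, Ndufc2 by 1.26, and Cox7b2 and Cox6b2 also fell. The largest fall was that of the restricted copy Cox4i2, at 27 UMIs against 1183 in RGL, which is given as a description. The mitochondrial count was 7 with a mitochondrial limit of 10% and 7 without the library term. Early response genes had 1 of 20 higher and 5 lower in nIPC, and their part was not tested.

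Between nIPC and neuroblasts few members differed. No nuclear member was called higher in neuroblasts by edgeR, where 4 had an unadjusted p under 0.05 and DESeq2 called 0, and 5 were lower. Of all genes 13.8% were higher and 13.7% lower. The lower members were Ndufc2 (log2 difference -0.55, SE 0.15, adjusted p = 0.00398), the assembly factor Ndufaf4, Sdha, Cox6b2 and Ndufs8. Of the 13 mitochondrial members edgeR called 0, 0 were higher and 0 lower at an unadjusted p under 0.05, and DESeq2 called 0 higher and 0 lower. The counts depend on the name of 1 cluster, led by Tac2, Sox11 and Eomes, whose marker scores for nIPC and neuroblast were 2.89 and 2.46. With that cluster counted as neuroblast, 22 nuclear members were higher and 7 lower in neuroblasts, and in nIPC against RGL 7 were higher and 30 lower. The nIPC class then kept 133 and 136 cells, all from another cluster, whose leading genes included Hells, Uhrf1, Pclaf and Mcm6. Its marker scores for nIPC and RGL were 1.35 and 0.75. The main nIPC class pooled both clusters, and the part of this other cluster in the counts was not tested. With the 2 classes fitted alone, 14 nuclear members were higher in neuroblasts and 28 lower.

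Granule neurons, the mature product of the lineage, held more nuclear respiratory messages than neuroblasts, while their mitochondrial share of 4.62% and 4.95% lay above that of neuroblasts, 4.53% and 5.77%, in library 1 and below it in library 2. Of 91 nuclear members 69 rose and 1 fell (median 0.81), against 22.5% and 25.7% of all genes and an all-gene median of -0.13. Complex I had 35 of 38 subunits higher, complex III 7 of 8, complex V 14 of 17, complex II 3 of 4 and complex IV 6 of 16. Among the 13 mitochondrial members mt-Nd1 rose (log2 difference 0.46, SE 0.15, adjusted p = 0.0102), mt-Nd6 fell (log2 difference -0.44, SE 0.16, adjusted p = 0.0188) and 11 did not pass, with a median of -0.19.

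Ndufb4, a membrane-arm subunit of complex I, stood at 594 and 677 CPM in granule neurons and 170.0 and 185 CPM in neuroblasts (log2 difference 1.80, SE 0.17, adjusted p = 1.81e-12). Atp5g1 stood at 922 and 1010.2 CPM against 307 and 326 CPM (log2 difference 1.57, SE 0.16, adjusted p = 4.49e-11) and Cox6c at 1878 and 2018 CPM against 627 and 688 CPM (log2 difference 1.52, SE 0.16, adjusted p = 1.57e-10). Uqcrq, of complex III, rose by 1.54, and the core subunits Ndufs7 of complex I and Sdha of complex II both by 1.27. For each of these 6 genes both granule neuron values exceeded both neuroblast values. Sdhc, which anchors complex II in the membrane, did not pass (log2 difference -0.31, SE 0.15, adjusted p = 0.0813), and Ndufaf6 was the one that fell (log2 difference -0.84, SE 0.26, adjusted p = 0.00582). The nuclear median rose in each alternative tried, from 0.67 to 0.94. Granule neurons were few (49 and 106 cells) and deep (median 20867 and 19498 UMIs, against 8976 and 7428 in neuroblasts), and early response genes had 0 of 20 higher and 7 lower in them; the part of either was not tested.

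Oligodendrocytes, the myelinating cells, were compared with premyelinating oligodendrocytes in place of precursors. The marker scores of that cluster were 4.96 for premyelinating cells and 4.69 for precursors. The precursor markers Lhfpl3 and C1ql1 were among its leading genes, so precursors were not told apart from it. All 13 mitochondrial members rose (median 1.13), while nuclear members had 16 higher and 10 lower (median 0.12), against 20.5% and 22% of all genes. mt-Nd3 stood at 2017 and 2226 CPM in oligodendrocytes and 929 and 1366 CPM in premyelinating cells (log2 difference 1.58, SE 0.17, adjusted p = 1.72e-10), and mt-Co2 at 8797 and 9826 CPM against 5506 and 7251 CPM (log2 difference 1.24, SE 0.14, adjusted p = 1.29e-09). Among nuclear members the catalytic complex I subunits Ndufs7 and Ndufv1 rose by 1.09 and 1.01, and Sdhc and Sdha by 0.75 and 0.68. The assembly factor Ndufaf6 fell by 2.23, Ndufaf7 by 1.01, Cox7b by 0.58 and Atp5e by 0.56. Ndufa4l2 was also called lower, on 4 UMIs against 6, and the libraries differed in its direction. The nuclear counts changed with the settings. They were 28 higher and 6 lower with mitochondrial genes left out of the fit, 28 and 5 with a mitochondrial limit of 10%, 28 and 7 without such a limit, 29 and 6 with a minimum of 2000 UMIs, 27 and 7 after subtracting free RNA and 8 and 15 in DESeq2. Total-count scaling took the all-gene median from -0.014 to -0.65, called 0 nuclear members higher and 56 lower, and kept 9 mitochondrial members higher. Early response genes had 1 of 20 higher and 11 lower in oligodendrocytes, and their part was not tested.

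In pericytes against endothelial cells, which line the blood vessels, the paired copies of Ndufa4 and Cox4i1 parted. Ndufa4l2 stood at 1408 and 1368 CPM in pericytes and 11.8 and 12.3 CPM in endothelial cells, and Cox4i2 at 589 and 562 CPM against 4.49 and 5.96 CPM. Ndufa4, present in all classes, fell from 479 and 537 CPM in endothelial cells to 43.9 and 65.0 CPM in pericytes (log2 difference -3.44, SE 0.19, adjusted p = 3.27e-19). Altogether 28 nuclear members rose and 7 fell (median 0.16), against 14.3% and 15.9% of all genes. The rises include the restricted copies Ndufa4l2 and Cox4i2, whose levels are a description. Complex I had 15 of 38 subunits higher. Cox6b2 stood at 19.5 and 23.6 CPM against 1.43 and 2.29 CPM. Ndufaf2 rose by 1.44, while Ndufaf7, Cox5a and Cox7a2l fell by 1.66, 0.93 and 0.71. Cox4i1 did not pass (log2 difference 0.14, SE 0.12, adjusted p = 0.456). Of the mitochondrial members mt-Co3 and mt-Cytb rose, and neither was called when the library term was left out or with a mitochondrial limit of 10%. Early response genes had 0 of 20 higher and 12 lower in pericytes, and their part was not tested.

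Choroid plexus cells exceeded astrocytes in nearly every nuclear member. Of 91, 82 rose and 3 fell (median 1.29), against 27.3% and 26.6% of all genes, and all tested members of complexes II, III and V rose. These counts include the restricted copies Cox8b, Cox6b2 and Cox7a1, and Cox7b2 among the falls, whose levels are given above as a description. Atp5g1, which is present in all classes, rose by 3.55 on the log2 scale (SE 0.17, adjusted p = 3.92e-21). Sdhc stood at 286 and 177 CPM against 96.1 and 90.8 CPM (log2 difference 1.44, SE 0.12, adjusted p = 6.04e-14) and Atp5a1, the other main subunit of the catalytic head, at 817 and 599 CPM against 342 and 330.1 CPM (log2 difference 1.29, SE 0.13, adjusted p = 3.50e-11). The falls were Ndufc2 (log2 difference -1.06, SE 0.15, adjusted p = 1.16e-07), the assembly factor Ndufaf2 and Cox7b2. The last is a restricted copy with its highest mean in astrocytes, and its 2 UMIs against 90 there are a description. Mitochondrial members had 9 lower and 1 higher (median -0.42), with mt-Co3 at 8476 and 13093 CPM against 19428 and 22005 CPM and mt-Nd5 the one that rose (log2 difference 0.37, SE 0.16, adjusted p = 0.0475).

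The libraries disagreed within choroid plexus. Library 1 gave 29 cells and library 2 gave 339, of which 110 fell, with 1 cell of library 1, into a second cluster with a median of 44717 UMIs. Nuclear members took 11.3% and 8.68% of UMIs in the first cluster and 4.25% in the library 2 cells of the second. Ttr, the main secreted product of this epithelium, took 17.3% and 31.3% of UMIs, and of the UMIs other than Ttr nuclear members took 13% and 7.81%. Without the second cluster, 83 nuclear members rose, 11 mitochondrial members fell and mt-Nd5 turned to a log2 difference of -0.068. The mitochondrial falls were not called with a mitochondrial limit of 10% or with the 2 classes fitted alone, and 1 was called without the library term. Early response genes had 14 of 20 higher and 0 lower in choroid plexus, and their part was not tested.

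Border macrophages, which live in the meninges and around vessels, were compared with microglia. Nuclear members had 47 of 91 higher and 4 lower (median 0.52), against 9.83% and 18.1% of all genes and an all-gene median of -0.30. Complex IV had 12 of 16 members higher and complex I 21 of 38. Cox6c stood at 499.6 and 503 CPM in border macrophages and 209.5 and 224 CPM in microglia (log2 difference 1.12, SE 0.16, adjusted p = 6.51e-07), and Cox5a at 188 and 209 CPM against 113 and 111 CPM (log2 difference 0.73, SE 0.19, adjusted p = 0.00276). The members that fell were Ndufs1 (log2 difference -0.65, SE 0.22, adjusted p = 0.0195), Ndufa9, Ndufaf3 and Ndufaf7. Of these Ndufaf7 alone stayed called with total-count scaling, in DESeq2, with mitochondrial genes left out, with the 2 classes fitted alone, with either other mitochondrial limit, with a minimum of 2000 UMIs and after subtracting free RNA. Without the filter on low counts Ndufaf7 and Ndufa9 stayed called. mt-Co1, mt-Co2, mt-Co3, mt-Atp6 and mt-Atp8 rose. Cox7a1 and Cox6b2 were low in both classes, the first at 3.59 and 5.20 CPM against 0.521 and 0.706 CPM and the second at 9.88 and 5.20 CPM against 1.32 and 1.30 CPM. The 5 mitochondrial calls were lost without the library term or with a mitochondrial limit of 10%, whereas DESeq2 called 12. Early response genes had 2 of 20 higher and 0 lower in border macrophages, and their part was not tested.

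**Figure D4:**
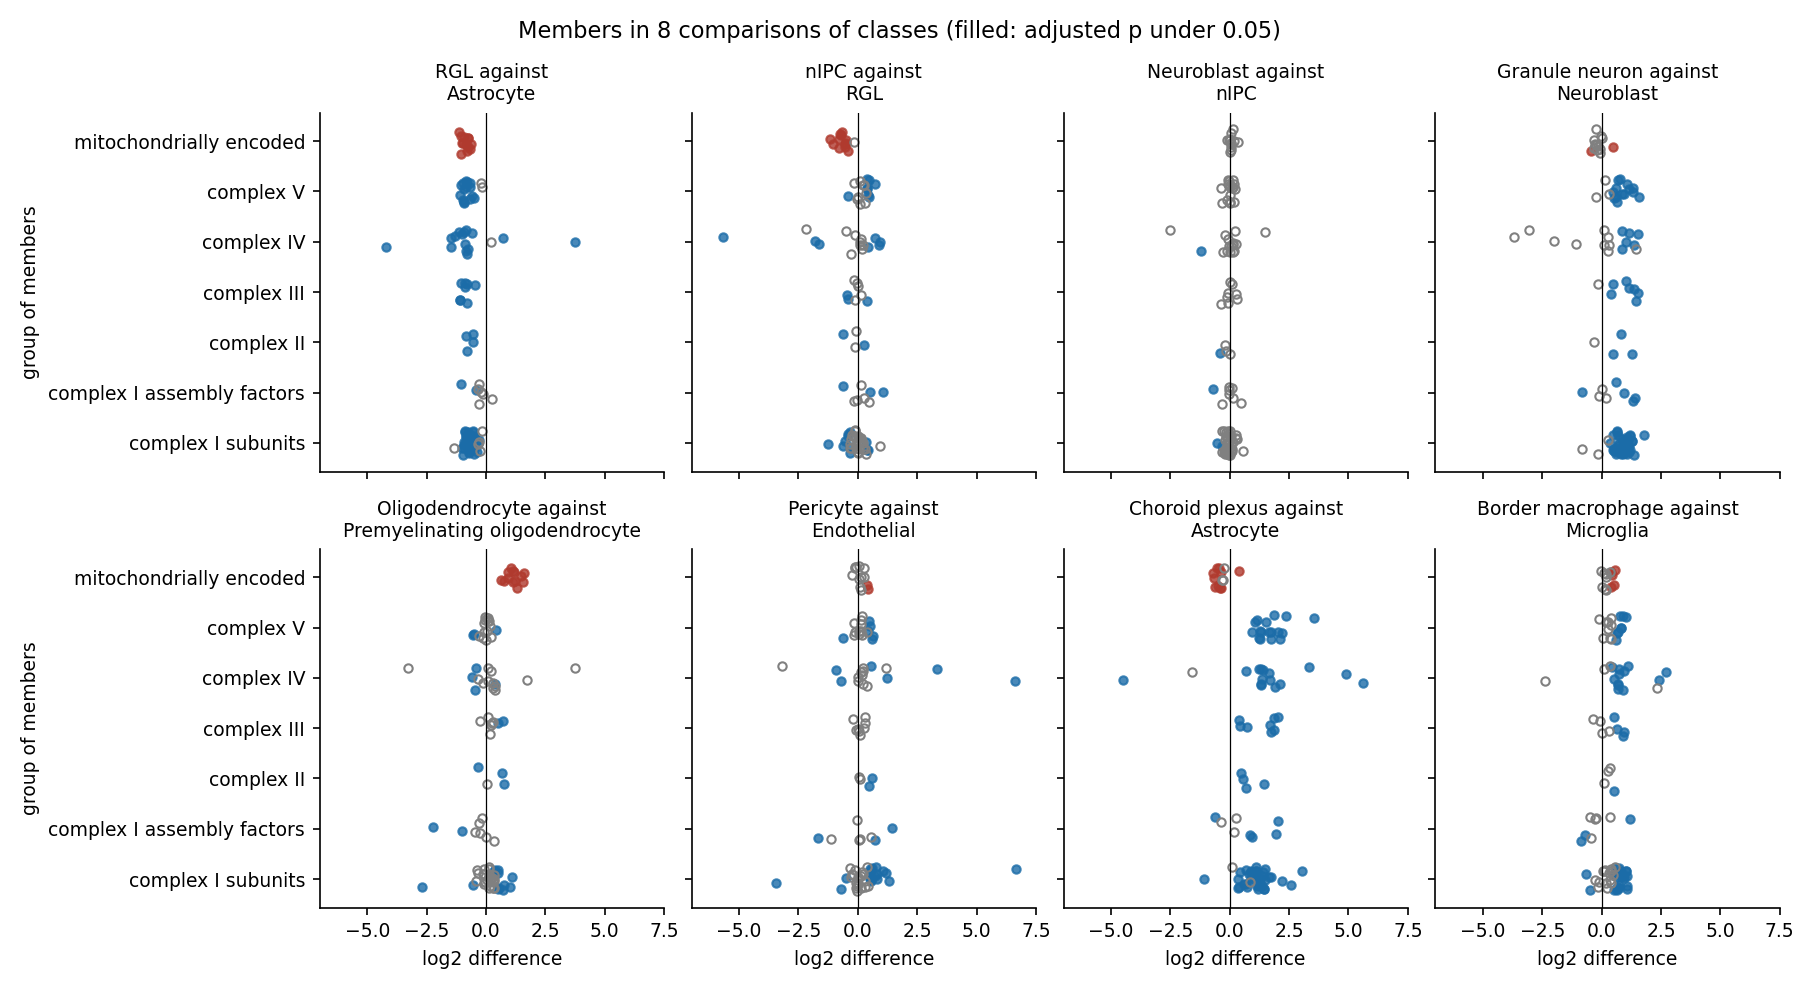
Log2 difference (horizontal axis) of each tested member in 8 comparisons of classes, grouped by complex; filled points have an adjusted p under 0.05, with mitochondrially encoded members in red and nuclear members in blue, and open grey points do not. The groups shift together below 0 in RGL against astrocytes, nuclear groups lie above 0 in granule neurons against neuroblasts while mitochondrial members center near 0, and in oligodendrocytes the mitochondrial members lie above 0.

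Genes of related pathways, listed apart from the members, were counted in 4 of the same comparisons. In RGL against astrocytes, where 14.1% of all genes were higher and 18.1% lower, 13 genes of the tricarboxylic acid cycle, which feeds complexes I and II, had 0 higher and 12 lower. The 9 respiratory genes outside the symbol rule, such as cytochrome c, had 1 higher and 6 lower, the 78 mitochondrial ribosome genes 3 higher and 12 lower, the 30 assembly factors of other complexes 0 higher and 7 lower and the 15 regulators of mitochondrial biogenesis and mitochondrial DNA expression, among them Ppargc1a and Tfam, 2 higher and 2 lower. In nIPC against RGL, where 27.9% of all genes were higher and 25.3% lower, the tricarboxylic acid cycle had 1 higher and 3 lower and the mitochondrial ribosome 31 higher and 6 lower. In granule neurons against neuroblasts, with 22.5% and 25.7% of all genes, the tricarboxylic acid cycle had 9 higher and 0 lower, the respiratory genes outside the rule 4 higher and 0 lower, the mitochondrial ribosome 40 higher and 6 lower, the assembly factors 14 higher and 3 lower and the regulators 5 higher and 3 lower. In choroid plexus against astrocytes, with 27.3% and 26.6% of all genes, the tricarboxylic acid cycle had 9 higher and 2 lower, the respiratory genes outside the rule 8 higher and 0 lower, the mitochondrial ribosome 44 higher and 3 lower, the assembly factors 9 higher and 4 lower and the regulators 6 higher and 4 lower.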

How the data were processed

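Per the submitters' processing notes, the authors used Cell Ranger 4.0.0, mm10 and Scanpy 1.7.0. They deposited 1 unfiltered matrix of raw counts (UMIs per gene and barcode) for both samples. Cells were barcodes reaching 1000 UMIs and 500 genes without exceeding 20% mitochondrial UMIs, and doublets were removed per library with scrublet (expected rate 0.06; 226 and 252 cells, 2.74% and 3.01%). Counts were scaled to 10000 per cell, log-transformed and clustered with scanpy 1.11.5 (3000 variable genes, 40 principal components, 15 neighbours, Leiden resolution 1). The members and all gene lists were chosen with earlier results of these data known.

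Clusters were named by a score over marker lists. The details of the score were set after the data were seen. A first way of settling close scores, by own markers among the 10 leading genes, would have named the Tac2 cluster neuroblast; it was replaced by the best score, which gave nIPC, and the other name was kept as an alternative. No cluster was named oligodendrocyte precursor, so the planned comparison with precursors was replaced by one with premyelinating oligodendrocytes, also after the data were seen.

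Counts were summed per library and class with at least 20 cells per library and fitted in R 4.3.3 with edgeR 4.0.16 (quasi-likelihood test, class and library terms, filterByExpr, TMM, Benjamini-Hochberg adjustment over 15529 genes). The procedure was tried on simulated data for RGL against astrocytes only. The simulated spread was smaller than that of the real data, whose common biological coefficient of variation was 0.123. The trial therefore does not show how the test behaves at the real spread or in the other comparisons. Alternatives covered DESeq2 1.42.0, scaling, low-count filter, the classes fitted, the library term, mitochondrial and UMI limits, free RNA and each library left out; the Tac2 naming, and leaving out shallow clusters or the choroid plexus cluster held almost wholly by library 2, were added after the data were seen. Intervals are exact at 95% and cover counting error only, and a count of 0 allows up to 3 counts. Promoter motifs were shortened to their present letters after longer forms had been searched. Shares of cells with a UMI were taken after thinning to 1000 UMIs. Named genes are all mitochondrial members, the listed isoform sets, core subunits, and per comparison the 4 largest called differences each way with the same sign in both libraries; others named were chosen after their values were seen, and some items that the rule names are not reported here.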

Additional observations from a re-analysis of the deposited data

Results flagged for a closer look

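Barcodes over the mitochondrial limit of 20% entered the comparisons only in the alternative without that limit, and their shares from the members were as follows. The 261 such barcodes of library 1 gave 2.95% of their UMIs to nuclear members, and the 510 of library 2 gave 3.09%, with 25% and 26.4% from the 13 mitochondrially encoded members and medians of 1732 and 1590.0 UMIs. Free RNA held 2.04% and 2.06% from nuclear and 22.6% and 25.3% from mitochondrially encoded members. The part of free RNA in the values of these barcodes was not tested.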

How the results depend on the processing

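Classes are named for the comparisons above. Counts of called members and highest-to-lowest class ratios gave 347 values within 1.5 times or counting error, and 99 moved. Medians of the nuclear and mitochondrial members moved by more than 1 SD of the 2 libraries in 82 values. The medians that stayed and the genes named singly that kept their side of the threshold together gave 5049 values. Among genes named singly, 261 values lost the threshold, 217 gained it and 19 reversed. With DESeq2, members called higher among nuclear ones were 1 in RGL, 6 in nIPC and 8 in oligodendrocytes, lower nuclear ones 0 in granule neurons, 5 in choroid plexus and 1 in border macrophages, lower mitochondrial ones 0 in granule neurons and higher mitochondrial ones 4 in pericytes and 12 in border macrophages. With the Tac2 cluster as neuroblast, members called higher among nuclear ones were 7 in nIPC and 22 in neuroblasts, lower nuclear ones 30 in nIPC and 3 in granule neurons and lower mitochondrial ones 2 in granule neurons. Reversed log2 differences there were Cox6a1 0.43 and Ndufs8 0.029 in neuroblasts. With a minimum of 2000 UMIs, members called higher among nuclear ones were 29 in oligodendrocytes, lower nuclear ones 6 in oligodendrocytes and 1 in border macrophages and higher mitochondrial ones 0 in pericytes and 0 in choroid plexus. The ratio of the highest to the lowest class was 3.80 for the mitochondrial share in library 1 under it. After subtracting free RNA, members called higher among nuclear ones were 10 in nIPC and 27 in oligodendrocytes, higher mitochondrial ones 0 in pericytes and 0 in choroid plexus and lower nuclear ones 1 in border macrophages. The ratio of the highest to the lowest class was 3.28 for the mitochondrial share in library 2 and 8.83 for the mitochondrial-to-nuclear ratio in library 1 under it. With mitochondrial genes left out of the fit, members called higher among nuclear ones were 28 in oligodendrocytes and lower nuclear ones 6 in oligodendrocytes and 1 in border macrophages. With a mitochondrial limit of 10%, members called lower among mitochondrial ones were 7 in RGL, 7 in nIPC, 0 in granule neurons and 0 in choroid plexus, lower nuclear ones 9 in neuroblasts, 5 in oligodendrocytes and 1 in border macrophages, higher nuclear ones 28 in oligodendrocytes and higher mitochondrial ones 0 in pericytes, 0 in choroid plexus and 0 in border macrophages. The ratio of the highest to the lowest class was 16.0 for the nuclear share in library 1, 3.66 for the mitochondrial share in library 1, 2.35 for the mitochondrial share in library 2, 11.4 for the mitochondrial-to-nuclear ratio in library 1 and 4.19 for the mitochondrial-to-nuclear ratio in library 2 under it. Without the library term, members called lower among mitochondrial ones were 7 in nIPC, 0 in granule neurons and 1 in choroid plexus, lower nuclear ones 3 in neuroblasts and higher mitochondrial ones 0 in granule neurons, 0 in pericytes, 0 in choroid plexus and 0 in border macrophages. Without a filter on low counts, members called higher among nuclear ones were 11 in nIPC, lower nuclear ones 10 in nIPC and 2 in border macrophages and higher mitochondrial ones 0 in pericytes, 0 in choroid plexus and 1 in border macrophages. Without a mitochondrial limit, members called lower among nuclear ones were 2 in neuroblasts, 2 in granule neurons and 1 in border macrophages, lower mitochondrial ones 2 in granule neurons, higher nuclear ones 28 in oligodendrocytes and higher mitochondrial ones 0 in pericytes and 0 in choroid plexus. That alternative also clustered and named the cells anew, with 263 and 225 nIPC in place of 471 and 409. The ratio of the highest to the lowest class was 14.6 for the nuclear share in library 1, 4.25 for the mitochondrial share in library 1, 3.78 for the mitochondrial share in library 2 and 4.30 for the mitochondrial-to-nuclear ratio in library 2 under it. With the 2 classes fitted alone, members called higher among nuclear ones were 4 in RGL and 14 in neuroblasts, lower nuclear ones 28 in nIPC, 28 in neuroblasts and 1 in border macrophages, higher mitochondrial ones 1 in neuroblasts, 4 in pericytes, 0 in choroid plexus and 13 in border macrophages and lower mitochondrial ones 1 in neuroblasts, 6 in granule neurons and 0 in choroid plexus. Reversed log2 differences there were mt-Cytb 0.20 in border macrophages. With total-count scaling, members called higher among nuclear ones were 4 in RGL and 0 in oligodendrocytes, lower nuclear ones 38 in RGL, 8 in nIPC, 10 in neuroblasts, 56 in oligodendrocytes, 5 in choroid plexus and 1 in border macrophages and higher mitochondrial ones 4 in pericytes and 0 in choroid plexus. Reversed log2 differences there were Ndufv1 0.061 in RGL, mt-Nd6 -0.040, Cox4i1 -0.31, Atp5g3 -0.63, Ndufs1 -0.18, Ndufs8 -0.51, Sdhd -0.63, Uqcrc1 -0.17, Uqcrfs1 -0.47, Cox5b -0.59 and Atp5c1 -0.62 in oligodendrocytes and Ndufs1 -0.053 in choroid plexus. Without shallow clusters, members called lower among nuclear ones were 12 in neuroblasts and lower mitochondrial ones 0 in granule neurons. The ratio of the highest to the lowest class was 3.75 for the mitochondrial share in library 1 and 3.04 for the mitochondrial share in library 2 under it. Without the choroid plexus cluster held almost wholly by library 2, members called higher among mitochondrial ones were 0 in choroid plexus. Reversed log2 differences there were mt-Nd5 -0.068 in choroid plexus. Leaving out 1 library keeps 1 sum per class, so each library's difference was set against the full test, and the count of calls in the same direction ranged over 9 to 10 nuclear ones lower in oligodendrocytes, 2 to 3 nuclear ones lower in choroid plexus, 0 to 1 mitochondrial ones higher in choroid plexus and 8 to 9 mitochondrial ones lower in choroid plexus. Single genes whose direction differed between the libraries, given as the lowest and highest of the 2 values, were mt-Co1 in choroid plexus at -0.87 without library 2 and 0.010 without library 1, mt-Nd5 there at -0.19 and 0.76, and Ndufa4l2 in oligodendrocytes at -2.70 without library 1 and 0.98 without library 2. Where the cause is not part of the alternative itself, the cause was not tested. No paired analysis was possible because the groups in the labels have 1 sample each and the libraries are not tied to them. Depth limited the rare copies: 3 UMIs correspond to 11.7 CPM in the smallest profile.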

Other observations

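Cox4i2 differed between the libraries in RGL; this gene and class were chosen after their values were seen. Of the 89 nuclear members with at least 20 UMIs in RGL, the median ratio of library 2 to library 1 was 1.00, the lowest 0.707 (Ndufaf5), the highest 2.31 (Cox4i2) and the second highest 1.71 (Cox7b2). Both RGL clusters had the gap: cluster 10 held 77.9 and 172 CPM of Cox4i2, and cluster 6 held 76.1 and 319.6 CPM. In pericytes the values were 589 and 562 CPM. With 1 library of each genotype and no tie between library and genotype, no test was possible.

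Ttr, the choroid plexus transcript, was also higher in library 2 outside choroid plexus. It stood at 6.70 and 424 CPM in astrocytes and 5.24 and 494 CPM in neuroblasts, and at 173282 and 312959.5 CPM in choroid plexus.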
